A study of Rattus norvegicus with 6 samples.

Results

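Ceacam1 encodes carcinoembryonic antigen-related cell adhesion molecule 1, and its transcript was followed as 1 of the 17388 genes counted in single nuclei of rat colon. The gene was chosen by its enterocyte values themselves, because earlier fits to these counts had called it between each of the sham and PL8177 groups and placebo. Those enterocyte comparisons are therefore given as descriptions without a test. The genes that covary with it were chosen from the same nuclei and are descriptive as well.

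The study asked how an oral melanocortin agonist, PL8177, changed the colon of rats with colitis caused by dextran sulfate sodium (DSS). All animals were male Wistar rats of wild-type genotype, and their age was not given in the sources used here. The placebo and PL8177 groups drank 5% DSS for 3 days, and from the following day were gavaged with capsules 2 times a day for 4 days. The PL8177 capsules held 50 µg per animal and the placebo capsules held vehicle. The sham group drank water only and received no DSS and, as far as the labels say, no capsules, so the comparison of sham with placebo combines both. Nuclei came from 9 flash-frozen colon samples, and the nucleus names carried 9 library tags, 3 per treatment, each read here as 1 rat. The labels do not list the rats, so the errors measure the spread between these tags.

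CEACAM1 is a membrane glycoprotein of the immunoglobulin superfamily that binds itself and other CEACAM proteins on neighbouring cells. In the colon it lies on the apical face of mature enterocytes, and it is also induced on activated T cells, where it acts as an inhibitory receptor. Its long cytoplasmic tail carries inhibitory motifs that recruit the phosphatases SHP-1 and SHP-2, and bacteria of several genera use the protein as a receptor.

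The promoter window of Ceacam1 is shown because the regulator list described further on includes Usf1 and Usf2, which bind the letters marked in it. RefSeq places it at chr1:90187743-90188042 on the minus strand of GRCr8, from 250 bases before the transcript start to 50 bases after it, and the count tables were made on an earlier build (Rnor 6.0). Capitals mark an E-box, CACGTG, the letters bound by these upstream stimulatory factors.

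Ceacam1: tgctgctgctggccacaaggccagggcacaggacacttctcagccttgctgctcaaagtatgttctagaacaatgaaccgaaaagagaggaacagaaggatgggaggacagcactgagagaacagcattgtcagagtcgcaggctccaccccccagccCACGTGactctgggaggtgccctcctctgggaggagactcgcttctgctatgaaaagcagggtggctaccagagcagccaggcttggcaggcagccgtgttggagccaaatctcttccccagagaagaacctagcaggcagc

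The E-box began at base 159 of the 300, and 6.42% of 33469 promoter windows of this length held the same letters, which read alike on both strands. The GC box GGGCGG, searched on both strands, was absent from the Ceacam1 window and present in 33.1% of all windows. Only the E-box matched, so no matches overlapped. These are matches of letters and no measure of binding.

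The enterocyte files held 8782 nuclei and the T cell files 1018. Summed unique molecular identifiers (UMIs, each 1 captured RNA molecule) per tag ran from 319125 to 4123319 in the enterocyte files and from 8070 to 779009 in the T cell files. The median UMIs per nucleus differed between enterocyte tags from 437 in sham GR13 to 2331 in sham GR12. In all, 10 nucleus barcodes occurred in more than 1 tag and 0 occurred in both cell types of a tag. The enterocyte label held in every tag: the 15 enterocyte markers summed to between 150 and 323 UMIs per 10000, and the 13 T cell markers in these tables to at most 0.846. The T cell label did not hold for placebo GR23, whose T cell file had T cell markers at 2.13 and enterocyte markers at 208 per 10000. In the other 8 tags the T cell markers of the T cell files reached at least 24.8 per 10000, but in 5 of them enterocyte markers exceeded T cell markers, most in PL8177 GR44 with 91.9 against 37.6. These were sham GR13 and GR15 and all 3 PL8177 tags, so the T cell files held mixed signal in most tags.

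Ceacam1 was detected with 4755 UMIs in 1759 enterocyte nuclei (20.0%). Each level below is the Ceacam1 UMIs per 10000 UMIs of a tag. In sham enterocytes the level was 4.06 in GR12, 3.45 in GR13 and 2.54 in GR15. Placebo enterocytes had 1.38 in GR22, 1.16 in GR23 and 1.20 in GR24. PL8177 enterocytes had 3.47 in GR41, 3.88 in GR43 and 2.17 in GR44. All 3 placebo tags lay below all 6 tags of the other treatments, whereas sham and PL8177 tags were interleaved.

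**Figure D1:**
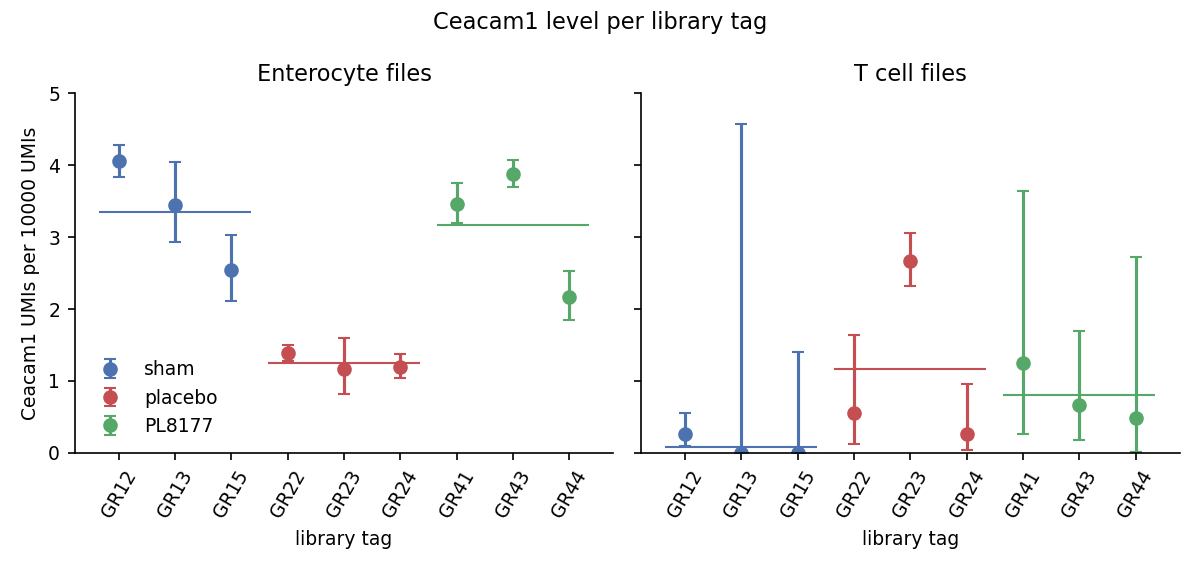
Ceacam1 UMIs per 10000 UMIs (y axis) in each library tag (x axis), for the enterocyte files on the left and the T cell files on the right. Points are tags, bars are exact Poisson 95% intervals for counting error only, and horizontal lines are treatment means; placebo enterocytes sit between 1.16 and 1.38, and placebo GR23 stands apart in the T cell files at 2.67.

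Mean levels were 3.35 ± 0.761 in sham, 1.25 ± 0.120 in placebo and 3.17 ± 0.893 in PL8177 (SD, n = 3 tags). The order of the tags from the top was GR12, GR43, GR41, GR13, GR15, GR44, GR22, GR24 and GR23. Neighbours in that order had overlapping 95% counting intervals, except PL8177 GR44 (1.85 to 2.52 per 10000) and placebo GR22 (1.27 to 1.50). The 3 placebo tags could not be told apart by counting error.

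In the edgeR fit over 9424 genes, Ceacam1 was 2.98-fold higher in sham than in placebo (log2 fold change 1.58, SE 0.262, 95% interval 1.01 to 2.15). PL8177 exceeded placebo 2.82-fold (log2 fold change 1.49, SE 0.260, interval 0.93 to 2.06). Ordered by the strength of evidence, Ceacam1 stood at place 8 of 9424 in the first comparison and at place 4 in the second. In the first it lay between Kif21b, a kinesin motor (1.77, SE 0.291), and Esyt1, which tethers the endoplasmic reticulum to the plasma membrane (1.32, SE 0.223). In the second it lay between Fkbp5, a chaperone partner induced by glucocorticoids (-2.01, SE 0.347), and the kinase gene Tesk2 (1.22, SE 0.214). As background, edgeR called 0% of genes in either comparison at an adjusted p under 0.05 and a log2 fold change over 0.5, with 1172 and 871 genes at an unadjusted p under 0.05. DESeq2 called 1.93% of 5952 genes for sham and 1.32% of 5311 genes for PL8177, both against placebo. Since these contrasts chose the gene, its place among the calls carries no weight.

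PL8177 and sham were compared in the same fit. The gene was chosen because both groups exceeded the same placebo, and such a choice favours a small difference between them, so this test is not free of it. Ceacam1 differed by -0.08 on the log2 scale (SE 0.252, 95% interval -0.63 to 0.46), and edgeR's quasi-likelihood test gave a Benjamini-Hochberg adjusted p of 0.978. The interval leaves room for levels in PL8177 from somewhat below to somewhat above those in sham. edgeR called 0% of 9424 genes here, with 621 at an unadjusted p under 0.05.

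Placebo GR23 bears on these values because only 304 of its nuclei were in the enterocyte file, against 685 in its T cell file. When nuclei of the T cell files that lacked a T cell profile were added to the enterocyte sums, the level of GR23 rose to 2.29 per 10000. It then lay above PL8177 GR44 at 2.22, so that placebo and PL8177 overlapped, while sham GR15 at 2.53 stayed above all placebo tags. The log2 fold changes were then 1.13 (SE 0.318) for sham and 1.05 (SE 0.316) for PL8177, each against placebo. This addition was chosen after the data were seen. Leaving GR23 out of the enterocyte fit instead gave 1.50 and 1.41.

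Detection depended on depth. Without any adjustment the share of nuclei with a Ceacam1 UMI was 35.5% in GR12, 13.4% in GR13 and 12.9% in GR15 for sham. It was 18.5%, 7.89% and 8.94% in placebo GR22, GR23 and GR24, and 21.3%, 33.4% and 13.5% in PL8177 GR41, GR43 and GR44. On this scale the treatments overlapped, since the deeply sequenced placebo GR22 passed the shallow sham tags GR13 and GR15.

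After each nucleus was thinned to 300 UMIs, which left out 252 sham, 103 placebo and 207 PL8177 nuclei, the point values of placebo no longer overlapped the others. Sham tags had 7.67%, 9.73% and 5.43%, placebo tags 2.56%, 1.11% and 2.07%, and PL8177 tags 5.26%, 7.72% and 5.15%. The value of placebo GR23 rested on 3 of 270 nuclei, and all of placebo on 63 of 2856. Means were 7.61% ± 2.15 in sham, 1.91% ± 0.736 in placebo and 6.04% ± 1.45 in PL8177 (SD, n = 3). The T cell marker nuclei, a class defined further on, had a UMI in 5 of 233 nuclei without thinning. That class leaves out nuclei rich in enterocyte markers, among them Car4 and Aqp8, so a low share is partly set by its definition.

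**Figure D2:**
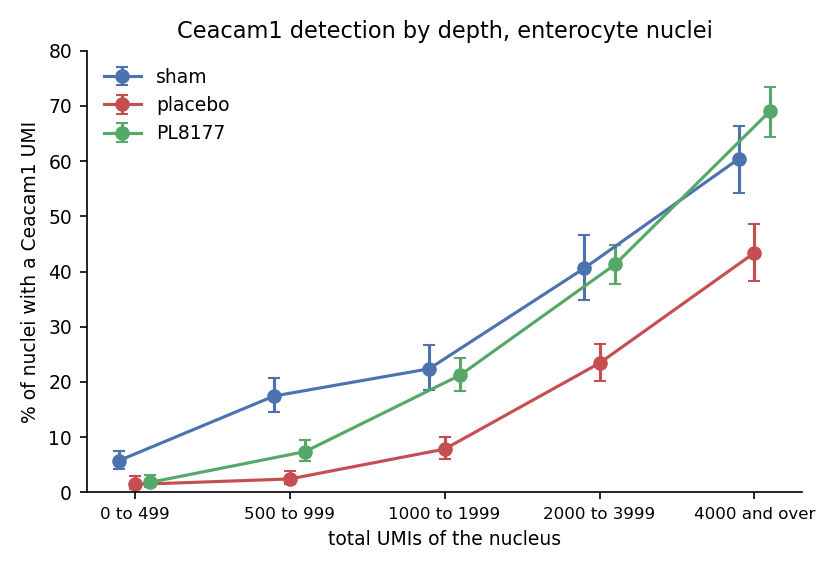
Share of enterocyte nuclei with at least 1 Ceacam1 UMI (y axis, percent) by the total UMIs of the nucleus (x axis, 5 depth classes), with 1 line per treatment. Points are shares pooled over the 3 tags of a treatment. Bars are exact binomial 95% intervals for counting error only and do not measure the spread between tags. At 4000 UMIs and over the shares were 60.4% in sham, 43.4% in placebo and 69.1% in PL8177.

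The share with a UMI rose with depth in all 3 treatments, and the point value of placebo was lowest in every depth class. The same counts chose the gene by its contrasts with placebo, so this order adds no support. Among nuclei with under 500 UMIs the share was 5.76% in sham, 1.43% in placebo and 1.81% in PL8177. In that class placebo rested on 7 of 489 nuclei and PL8177 on 12 of 662. Their counting intervals overlapped (0.577% to 2.93% and 0.940% to 3.14%), so placebo and PL8177 could not be told apart there. In the class from 2000 to under 4000 UMIs the share was 40.6%, 23.4% and 41.3%. The level per 10000 was also higher in the deepest class than in the shallowest, at 4.75 against 2.02 in sham, 1.72 against 0.438 in placebo and 4.54 against 0.555 in PL8177. In sham it did not rise at each step. These classes pool tags of unequal depth, and GR12 held 802 of the 978 sham nuclei with at least 1000 UMIs.

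Most positive nuclei held few molecules and a minority held many. In sham, 278 nuclei had 1 UMI and 88 had 5 or more, in placebo 214 and 27, and in PL8177 362 and 140. The nucleus with the most held 70 Ceacam1 UMIs among 18370 in all and belonged to GR12. Without it the log2 fold change of sham against placebo was 1.55. The 1% of nuclei with the most Ceacam1 UMIs carried 30.1% of them in sham, 25.8% in placebo and 18.7% in PL8177.

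Over the 6781 enterocyte nuclei with at least 500 UMIs, 4910 genes were compared with Ceacam1 by the Pearson correlation of log levels within each tag, averaged over the 9 tags. Nuclei of a tag share library and depth, so these correlations are descriptive. The median over all genes was 0.0038 and the largest mean was 0.39. The 15 genes most like Ceacam1 were positively correlated with it in 9 of 9 tags.

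The 15 genes included March3, a membrane-bound ubiquitin ligase (mean r 0.39, from 0.21 to 0.58 over tags), and Clec2e, a C-type lectin (0.35). Genes of the absorptive surface were Car4, a membrane-anchored carbonic anhydrase (0.37), Aqp8, a water channel (0.35), Lypd8, a GPI-anchored protein that binds flagellated bacteria (0.31), and Muc13, a transmembrane mucin (0.34). Genes of antigen presentation were B2m, the light chain of MHC class I (0.34), and RT1-A1, a rat class I heavy chain (0.32). Reads of RT1-A1 could be shared with near-identical class I genes, so its value is uncertain. Duox2, the epithelial oxidase that releases hydrogen peroxide at the lumen, had a mean r of 0.33.

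The other 6 were Sectm1b (0.32), the ubiquitin ligase gene Fbxo32 (0.32), Tm4sf20 (0.31), AABR07062154.2 (0.31), the ether lipid enzyme gene Agmo (0.31) and Pdzk1ip1 (0.30). Of the 15, RefSeq promoter windows were matched for 12, and 1 of these 12 held the E-box that the Ceacam1 window holds. The lowest correlations belonged to Gmds, an enzyme of GDP-fucose synthesis (-0.26), Snrnp70 (-0.22), the fucosyltransferase gene Fut9 (-0.21), the bicarbonate transporter gene Slc4a7 (-0.21) and Pgap1 (-0.21).

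**Figure D3:**
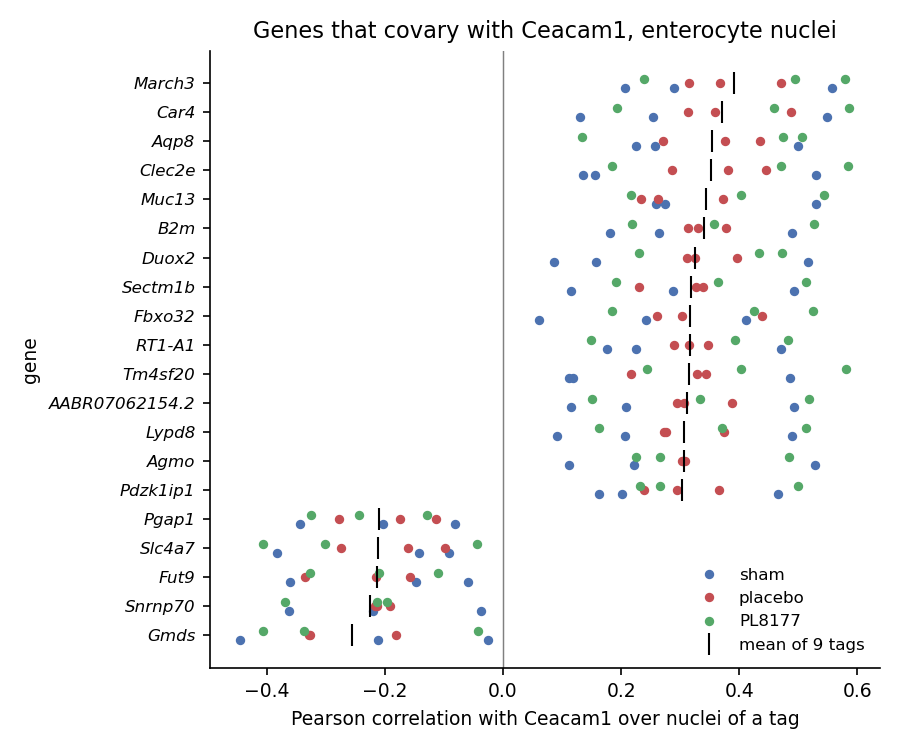
Pearson correlation with Ceacam1 over the enterocyte nuclei of a tag (x axis) for the 15 genes with the highest and the 5 with the lowest mean (y axis). Coloured points are the 9 tags by treatment and black ticks are means; all 15 upper genes are above 0 in every tag, and the spread between tags is wide, from 0.21 to 0.58 for March3.

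Correlations weakened once every nucleus had the same depth. After thinning to 500 UMIs the mean over the 15 genes fell from 0.33 to 0.15, and all 15 stayed positive in 9 of 9 tags. Car4 was then first (0.19) and March3 second (0.17), and 13 of the 15 were again among the top 15. Measured as the ratio between nuclei with and without a Ceacam1 UMI, all 15 were higher in nuclei with one, but only 1 of them was among the top 15 by that measure. That ratio was 1.77 on the log2 scale for Duox2 and 0.77 for Lypd8.

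The covarying genes did not all differ between treatments as Ceacam1 did. Of the 15, 12 had a positive log2 fold change for sham against placebo, with a median of 0.62, and 11 for PL8177 against placebo, with a median of 0.36. Over all genes tested these medians were -0.02 and -0.01. edgeR called 0 of the 15 in either comparison, and DESeq2 called 1, Muc13, for sham (log2 fold change 1.93, SE 0.295 by edgeR, adjusted p = 1.65e-08 by DESeq2), against a background of 1.93% of genes called. March3, the gene most like Ceacam1 within tags, had values of -0.37 (SE 0.293) for sham and -0.22 (SE 0.292) for PL8177, each against placebo.

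The surface list of 25 genes of differentiated colonocytes tracked Ceacam1 over nuclei. Of its 22 genes with a correlation, 21 had a positive mean and 14 were positive in all 9 tags, with a median of 0.20. Over all 4910 genes 489 (9.96%) were positive in all tags, and 95 (1.93%) after thinning. After thinning the median of the list was 0.05, and 19 of 22 had a positive mean, a looser measure than positive in all tags. By the stricter measure only Slc26a3, Aqp8, Car4, Lypd8, Emp1, Atp12a and Dhrs9 remained after thinning. Among the 5 most abundant, Slc26a3, the chloride and bicarbonate exchanger, had 0.26, Lypd8 0.31, the chloride channel regulator gene Clca4 0.25, Krt20, a keratin of mature cells, 0.12, and the sodium and proton exchanger gene Slc9a3 0.01. The crypt list behaved differently: 2 of 8 genes with a correlation had a positive mean, with a median of -0.03. Among its most abundant genes, Kcnq1, a potassium channel, had -0.14, Ephb2, a guidance receptor of the crypt, -0.12, Cftr, the chloride channel, -0.11, and Rnf43, a Wnt feedback ligase, -0.01. Prom1, a membrane glycoprotein placed on the crypt list, had 0.27.

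Few surface genes passed a test between treatments. edgeR called 0 of its 23 tested genes in either comparison with placebo. DESeq2 called 1 of 23 higher in sham, against a background of 1.93% of genes called in either direction, and 3 of 23 higher in PL8177, against 1.32%. Named after their values were seen, these were Scnn1a, a sodium channel subunit, in both comparisons (1.16 for sham and 1.04 for PL8177), and Cdhr5 (0.88) and Plac8 (1.07) for PL8177. The list's median log2 fold change was 0.10 for sham and 0.48 for PL8177. Among crypt genes edgeR called 0 of 16 tested, and DESeq2 called 1 of the 9 it gave an adjusted p, Cftr, lower in both comparisons (-2.24, SE 0.309, and -1.62, SE 0.292).

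Each nucleus was next given a surface score, its surface UMIs minus its crypt UMIs after thinning to 500 UMIs. With the nuclei of every tag split into 3 equal ranges of score, Ceacam1 rose over the ranges in 9 of 9 tags. Means over tags were 0.534 ± 0.765 in the low, 2.15 ± 1.34 in the middle and 4.60 ± 1.92 per 10000 in the high range (SD, n = 9). In the high range the sham tags reached 7.32, 5.87 and 4.48, the placebo tags 2.58, 2.54 and 2.33, and the PL8177 tags 6.67, 5.98 and 3.63. All placebo tags again lay below the others, an order that the choice of the gene favours.

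The distribution of scores differed between treatments as well. With limits of 8 and 18 placed alike in every tag, the low range held 21.0% ± 17.4 of sham, 53.2% ± 3.47 of placebo and 33.9% ± 16.0 of PL8177 nuclei. The high range held 45.6% ± 20.0, 20.2% ± 4.84 and 34.9% ± 12.1 (SD, n = 3). PL8177 GR41 with 24.4% and placebo GR22 with 25.1% overlapped. The ranges are cuts of a continuous score and no cell types: 666 of 6781 nuclei lay within 1 of the lower limit and 586 within 1 of the upper. Nuclei of all 3 ranges had a median of 1 crypt UMI, so the score mostly measured surface UMIs. By UMIs over all enterocyte nuclei, Slc26a3 (144752) and Lypd8 (129300) led the surface list, so the score leans on these genes. Lypd8 is also among the 15 covarying genes, as are Car4 (mean r 0.37) and Aqp8 (0.35) of the surface list. The rise of Ceacam1 over the score is therefore not independent of those correlations. Prom1 (21854) led the crypt list, although it correlated positively with Ceacam1.

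Within the fixed high range Ceacam1 was 7.52, 5.21 and 4.03 per 10000 in sham GR12, GR13 and GR15. It was 2.35, 2.63 and 2.26 in placebo GR22, GR23 and GR24, and 6.73, 6.14 and 3.24 in PL8177 GR41, GR43 and GR44. The high range has no upper limit, so scores were not matched within it. Its mean score ran from 23.6 in placebo GR24 to 28.5 in sham GR13. Placebo tags were lowest in this range and thinning, with log2 ratios of tag means of 1.21 for sham and 1.15 for PL8177. These ratios used thinned nuclei with at least 500 UMIs. The 1.58 and 1.49 of the edgeR fit used unthinned sums of all nuclei. The values are not like for like, so no change between them can be read. The value of GR23 rested on 5 UMIs. In a second thinning over the 15108 genes shared by all tables it was 3.53 on 6 UMIs and passed PL8177 GR44 at 3.07. Placebo GR22 and GR24 then had 2.57 and 2.99. Sham GR12, GR13 and GR15 had 7.08, 6.13 and 4.59, and PL8177 GR41 and GR43 had 6.27 and 6.28. With thinning to 1000 UMIs and limits of 20 and 38, the log2 ratios of the high range were 1.03 for sham and 0.94 for PL8177. This deeper thinning kept 66 nuclei of sham GR13 over all ranges, against 325 at 500 UMIs.

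In the middle range sham had 3.08 ± 0.508, placebo 1.77 ± 0.0972 and PL8177 2.80 ± 0.884, and PL8177 GR44 at 1.82 fell among the placebo tags. In the low range sham and placebo each rested on 9 UMIs, too few to compare. How far the share of nuclei in each range sets the difference over all nuclei was not tested.

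**Figure D4:**
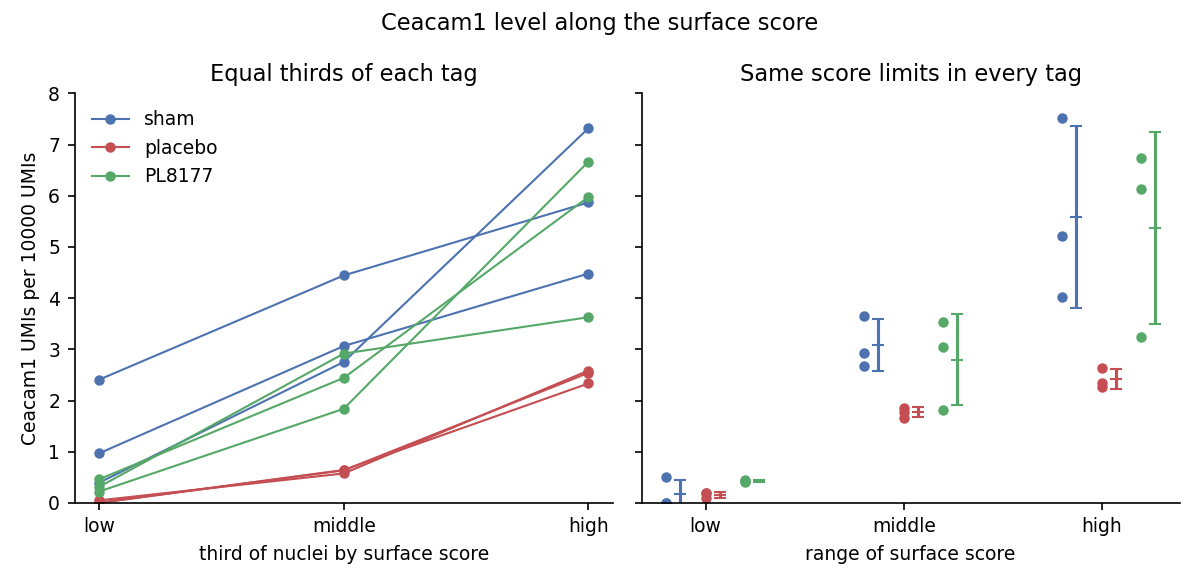
Ceacam1 UMIs per 10000 UMIs (y axis) by range of the surface score (x axis), for 3 equal ranges of each tag on the left and for the same limits in every tag on the right. Lines and points are tags coloured by treatment, and bars on the right are means ± SD over 3 tags; Ceacam1 rises from low to high in all 9 tags, and in the high range the placebo tags lie lowest, between 2.26 and 2.63.

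Proteins that signal with CEACAM1 were taken as a list of 27 genes. edgeR tested 21 of these and DESeq2 gave an adjusted p for 15, and each called 0 in either comparison with placebo. Over all genes edgeR called 0%, and DESeq2 1.93% for sham and 1.32% for PL8177, so 0 calls in such a list say little. Ptpn6, encoding SHP-1, had 322 enterocyte UMIs in all, and differed by 0.21 (SE 0.427) for sham and 0.45 (SE 0.393) for PL8177. Ptpn11, encoding SHP-2, was more abundant with 1411 UMIs and differed by -0.02 (SE 0.223) and 0.10 (SE 0.217). Ctnnb1, encoding beta-catenin, which binds the long tail, differed by -0.02 (SE 0.228) and 0.19 (SE 0.220). Across nuclei the strongest positive means were those of Actb (0.19) and Egfr (0.15), the receptor of epidermal growth factor. After thinning these were 0.07 and 0.05, and the median of the list was 5.3e-05. Of its 14 genes with a correlation, 0 were positive in all tags without thinning, against 9.96% of all genes.

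The list of 20 transcription and splicing regulators included 19 that edgeR could test. DESeq2 gave an adjusted p for 17 of these, without Sox9 and Esrp2. Each tool called 0 of them in either comparison with placebo. Beside the shares over all genes, 0% by edgeR and 1.93% and 1.32% by DESeq2, this too says little. Irf1, an interferon-induced activator, was 1 of 16 members with a correlation that was positive in 9 of 9 tags (mean r 0.14), a share under the 9.96% of all genes. After thinning it was positive in 7 tags, with a mean r of 0.04. Its log2 fold changes were 0.57 (SE 0.639) for sham and 0.19 (SE 0.634) for PL8177. Cdx2, the intestinal homeobox factor, correlated negatively in 9 of 9 tags (-0.15). Sox9, a factor of the crypt base, had only 109 UMIs and differed by 0.35 (SE 0.705) and -1.10 (SE 0.689). Among the splicing factors, Hnrnpa1 had a mean r of -0.07, Hnrnpm -0.05 and Hnrnpl -0.01. The Hnrnpl log2 fold changes were 0.26 (SE 0.221) and 0.06 (SE 0.217), those of Hnrnpm 0.13 (SE 0.219) and -0.27 (SE 0.217), and those of Hnrnpa1 -1.20 (SE 0.344) and -0.90 (SE 0.327). Usf1 and Usf2, named after their values were seen, had mean r values of -0.02 and -0.03. The log2 fold changes of Usf1 were 1.18 (SE 0.468) and 0.45 (SE 0.456), and those of Usf2 -0.40 (SE 0.277) and -0.45 (SE 0.268). Sums per gene do not separate the short-tailed and long-tailed Ceacam1 transcripts.

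The tables held 4 other genes of the CEACAM family. Ceacam18 had 796 UMIs in 612 enterocyte nuclei, and its level lay between 0.282 and 0.592 per 10000 in all 9 tags. It differed by 0.18 for sham and 0.53 for PL8177 against placebo, without a call by either tool, and had a positive correlation with Ceacam1 in 9 of 9 tags (mean r 0.15), but in 6 of 9 after thinning (0.04). Ceacam20 had 5 UMIs, Ceacam19 had 1 and Ceacam16 had 0, which was too little to compare.

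In the T cell files Ceacam1 had 227 UMIs in 135 of 1018 nuclei (13.3%). Per 10000 UMIs the sham tags GR12, GR13 and GR15 had 0.255, 0 and 0, on 6, 0 and 0 UMIs. Placebo GR22, GR23 and GR24 had 0.559, 2.67 and 0.264, on 3, 208 and 2 UMIs. PL8177 GR41, GR43 and GR44 had 1.25, 0.662 and 0.489, on 3, 4 and 1 UMIs. The zeros of GR13 and GR15 allow levels of up to 3.72 and 1.14 per 10000, counting 3 UMIs as the limit. Apart from GR23, each tag had a lower point value in its T cell file than in its enterocyte file. The counting intervals of the files did not overlap in GR12, GR15, GR24 and GR43, and overlapped in GR13, GR22, GR41 and GR44.

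Exact two-sided permutation tests on these levels compared 3 tags with 3, for which 0.1 is the smallest p. By these exact tests the difference in level was -1.08 for sham against placebo (p = 0.1, adjusted 0.15), -0.36 for PL8177 against placebo (p = 0.9, adjusted 0.9) and 0.71 for PL8177 against sham (p = 0.1, adjusted 0.15). Adjustment was over the 3 comparisons. Without GR23 the difference of PL8177 from placebo turned to 0.39. None passed the threshold, which this design cannot reach.

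Nuclei of the T cell files were split by their markers. The enterocyte markers used include Car4 and Aqp8, which covary with Ceacam1, so the split is not independent of it. The 233 T cell marker nuclei, in which T cell markers were detected and enterocyte marker UMIs did not outnumber them, held 7 Ceacam1 UMIs, a level of 0.215 per 10000 (exact Poisson 95% interval 0.0863 to 0.442). Of these 7 UMIs, 6 were in sham GR12 and 1 in placebo GR22. The other 785 nuclei held 220 UMIs, a level of 2.30 (2.01 to 2.63). Without GR23 they held 12 UMIs in 125 nuclei, a level of 0.603 (0.312 to 1.05), and the T cell marker nuclei 7 UMIs, a level of 0.230 (0.0924 to 0.473). In sham all 6 UMIs were in T cell marker nuclei and the other nuclei held 0. In GR23 all 208 UMIs were in its 660 other nuclei, and its 25 T cell marker nuclei held 0, which allows up to 3 UMIs in their 21612.

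The 478 such nuclei of GR23 with at least 500 UMIs over the genes of all tables had a mean of 14.1 surface UMIs per 500, against 9.93 in its 182 enterocyte nuclei. Ceacam1 stood at 2.34 per 10000 in the former (interval 1.77 to 3.04) and 0.989 in the latter (0.452 to 1.88). In the high range of the score they had 3.47 (2.02 to 5.55) over 98 nuclei and 3.53 (1.30 to 7.68) over 34. In the middle range they had 2.27 (1.52 to 3.27) and 1.00 (0.121 to 3.61), with overlapping intervals. The low range showed the widest gap, with 1.60 (0.767 to 2.94) over 125 nuclei against 0.185 (0.00469 to 1.03) over 108. These intervals cover counting error only, and all come from 1 rat.

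Markers of other cell types were scarce in the enterocyte files. The 6 macrophage and dendritic cell markers summed to 0.747 to 1.56 per 10000 in sham, 0.258 to 1.28 in placebo and 0.419 to 1.26 in PL8177. Neutrophil markers, from cells in which Ceacam1 is also expressed, were at 0 in all sham tags, between 0.00565 and 0.0313 in placebo and at most 0.00243 in PL8177. Goblet cell markers ranged from 1.28 to 3.39 in sham, 1.08 to 3.13 in placebo and 1.21 to 2.14 in PL8177. T cell markers ranged from 0.392 to 0.846 in placebo, against 0.267 to 0.525 in sham and 0.156 to 0.361 in PL8177. The neutrophil values rested on 4, 1 and 1 UMIs in placebo and on 1 UMI in all of PL8177, too few to compare. The T cell marker values of placebo lay above all those of PL8177. Their part in the Ceacam1 values was not tested.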

How the data were processed

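The authors deposited UMI counts per gene and nucleus, without normalization, as 6 tables of 1 cell type and treatment each. They made the counts with Cell Ranger 6.0.1, introns included, on a rat Rnor 6.0 reference, removed empty droplets with CellBender, filtered nuclei on genes and mitochondrial reads, and typed clusters with Seurat 4.0.3. How doublets were treated is not given in the sources used here. CellBender reduces but may not remove free RNA. The placebo T cell table ends in 1 incomplete line, which was left out, so T cell values use 15108 of the 17388 genes.

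UMIs were summed per library tag and fitted over all enterocyte genes with edgeR 4.0.16 (filterByExpr, TMM, quasi-likelihood) in R 4.3.3, with DESeq2 1.42.0 as an alternative. A call needed an adjusted p under 0.05 and a log2 fold change over 0.5 in either direction. The fits and correlations were tested on simulated data. Intervals are exact (Poisson or Clopper-Pearson, 95%). Covarying genes had to be detected in at least 5% of enterocyte nuclei.

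Named were Ceacam1, family genes with at least 50 UMIs, the 15 highest and 5 lowest covarying genes, the neighbours of Ceacam1 by p, the 5 most abundant surface and crypt genes, and fixed or most correlated members of the signalling and regulator lists. The gene and all lists were chosen with earlier results of these data known.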

Additional observations from a re-analysis of the deposited data

Results flagged for a closer look

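Ceacam1 differed in opposite directions between sham and placebo in the enterocyte and T cell files. The sham mean lay above the placebo mean by 2.10 UMIs per 10000 in the enterocyte files and differed by -1.08 in the T cell files, where the point values of the tags did not overlap in either. In the T cell files no separation is shown, since the zeros of sham GR13 and GR15 allow up to 3.72 and 1.14 per 10000. The difference between the cell types was not tested. In the T cell files the nearest tags were sham GR12 at 0.255 and placebo GR24 at 0.264, on 6 and 2 UMIs, and without placebo GR23 the difference was -0.33. Among T cell marker nuclei it was -0.03.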

How the results depend on the processing

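The log2 fold changes of sham and PL8177 against placebo in enterocytes were positive under every alternative run. Since the same counts chose the gene, this sign carries no weight as support. With 1 tag left out the log2 fold changes ran from 1.46 to 1.78 for sham and from 1.34 to 1.68 for PL8177. Thinning to 300 UMIs raised the sham value to 2.07. Adding the non-marker nuclei of the T cell files, an alternative chosen after the data were seen, lowered the values to 1.13 and 1.05. Placebo GR23 (2.29 per 10000) then lay above PL8177 GR44 (2.22). The difference of PL8177 from sham ran from -0.28 to 0.12 as tags were left out, positive without GR12, GR13 or GR44, and was never past the threshold. Against 0 genes called by edgeR for sham, PL8177 and PL8177 against sham, DESeq2 called 115, 70 and 4 and edgeR without a filter on low counts 51, 8 and 10. With 1 tag left out edgeR called from 0 to 8 for sham, 0 for PL8177 and from 0 to 2 for PL8177 against sham, the 8 without GR44 and the 2 without GR23. The share of nuclei with a Ceacam1 UMI followed depth: without thinning it was 20.6% in sham, 11.8% in placebo and 22.7% in PL8177. At 1000 UMIs it was 23.4%, 10.2% and 21.2%. That thinning left out 1486 sham, 1232 placebo and 1421 PL8177 nuclei, so these shares do not describe the same nuclei. The T cell difference of PL8177 from placebo ran from -0.82 to 0.39 over the tags left out, positive without GR23, and that of PL8177 from sham turned to -0.11 among T cell marker nuclei. The mean correlation of the 15 covarying genes was 0.15 after thinning. The cause of these shifts was not tested. Depth limits the T cell values, since 8 of 9 tags had at most 6 Ceacam1 UMIs there. No paired analysis was possible because the labels give no replicate numbers that tie tags of different treatments.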
